A study of Mus musculus with 6 samples.

Results

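Receptors that place B cells within lymphoid and mucosal tissue, all of them G protein-coupled, were followed in activated B cells with and without the aryl hydrocarbon receptor (AhR), a ligand-activated transcription factor. The 8 genes were taken by symbol from the 23420 genes of a count table. They were the chemokine receptors Ccr6, Ccr7, Ccr9, Ccr10, Cxcr3, Cxcr4 and Cxcr5 and the oxysterol receptor Gpr183, also called EBI2. B lymphocytes came from the spleens of 3 Ahr+/+ and 3 Ahr-/- mice labelled C57Bl/6J. The cells of both genotypes were cultured for 8 h with anti-IgM (α-IgM) at 10 µg/ml, which crosslinks the B-cell receptor, and with IL-4 at 20 ng/ml. Each culture also received FICZ, a tryptophan-derived AhR agonist, at 250 nM in its final 4 h, so no unstimulated, FICZ-free or earlier sample stood beside them. The study's methods name the B6.129-Ahr tm1Bra/J line, in which Ahr is lost from the whole animal and not from B cells alone. They give mice older than 8 weeks, matched for age and gender unless stated otherwise. The B cells were enriched with an untouched isolation kit and sequenced in bulk, so fewer cells of a type and less RNA per cell cannot be told apart.

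Chemokine receptors couple to inhibitory G proteins and steer a cell up the gradient of the chemokine that each one binds. In the spleen and lymph nodes, Cxcr5 draws B cells into the follicle through Cxcl13, whereas Ccr7 draws them towards the T-cell zone through Ccl19 and Ccl21, and the balance between both sets how close an antigen-engaged B cell comes to T cells. Gpr183 binds oxysterols such as 7α,25-dihydroxycholesterol and guides activated B cells to the outer and interfollicular edges of the follicle. Cxcr4, through Cxcl12, retains precursors in the bone marrow, organizes the germinal centre dark zone and brings plasma cells back to marrow. Ccr6 binds Ccl20, Ccr9 binds Ccl25 of the small intestine and thymus, Ccr10 binds Ccl27 and Ccl28, and Cxcr3 binds the interferon-induced chemokines Cxcl9, Cxcl10 and Cxcl11.

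The transcripts of 5 receptors, namely Cxcr4, Ccr6, Ccr9, Ccr7 and Cxcr5, were higher in Ahr-/- than in Ahr+/+ B cells, by between 1.21-fold and 1.57-fold. Gpr183, one of the most abundant of the receptor transcripts, did not pass the test. Cxcr3 was low and did not pass either, and Ccr10 was close to absent from the counts. Of the 7 receptors with enough counts to be tested, 5 rose and 0 fell at an adjusted p under 0.05 in edgeR's quasi-likelihood test, whereas 17.9% of all 13682 tested genes were called in either direction, 9.79% were called higher in Ahr-/- cells and 8.13% lower. The median log2 fold change of the 7 receptors was 0.33, against 0.00 for all tested genes. Normalized counts did not overlap between the genotypes for the same 5 receptors, and this was the case for 33.5% of all tested genes.

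**Figure D1:**
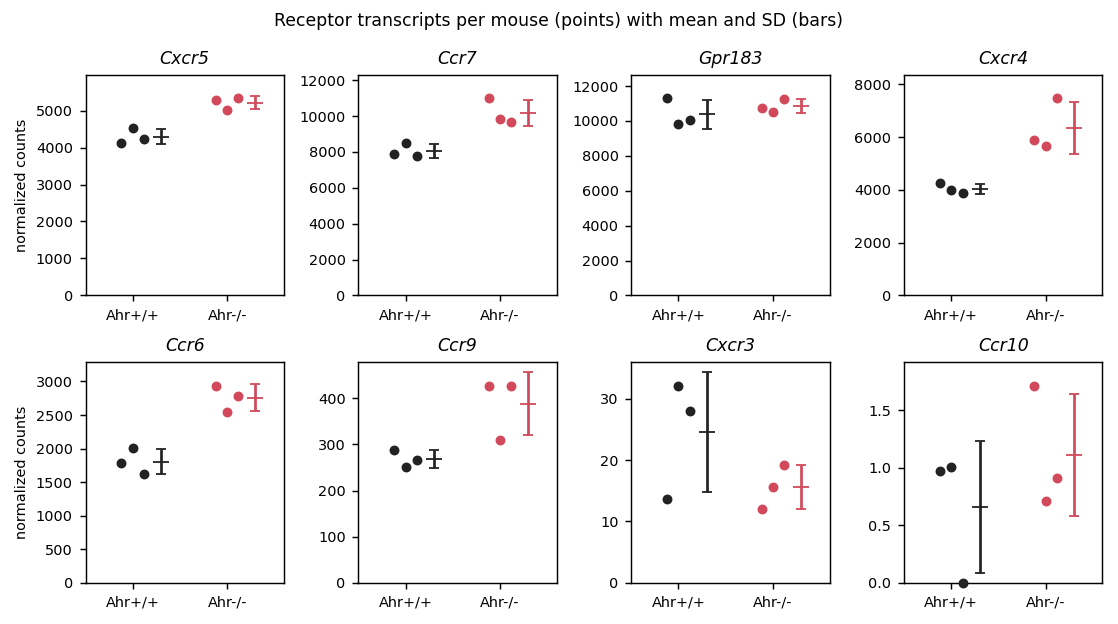
Normalized counts (vertical axes, each starting at 0) of the 8 receptor genes in the 3 Ahr+/+ and 3 Ahr-/- mice, 1 point per mouse, with the mean and SD as a bar beside the points. The 3 Ahr-/- points lay above the 3 Ahr+/+ points for Cxcr5, Ccr7, Cxcr4, Ccr6 and Ccr9, whereas the points of Gpr183, Cxcr3 and Ccr10 overlapped between the genotypes.

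The libraries held between 22095096 and 53648787 counts, and the shallowest and the deepest were both Ahr-/-. Normalized counts are counts divided by the library's TMM-scaled size relative to the mean of the 6 libraries. On this scale 3 counts, taken here as the floor of detection, corresponded to between 2.13 and 5.15 normalized counts. Ahr itself had means of 13175 in Ahr+/+ and 9174 in Ahr-/- cells, a log2 fold change of -0.52 (SE 0.047, adjusted p = 7.1e-06, edgeR). Ahr reads thus remained in Ahr-/- cells, and which part of the gene they came from was not tested. This row is therefore a weak check of the labels. Cyp1a1, the classical AhR target, had 5246 and 5.36 normalized counts (log2 fold change -10.04), with no overlap between the genotypes. Over all tested genes 2453 were called, of which 1340 were higher and 1113 lower in Ahr-/- cells. The B-cell markers Cd79b, Cd79a and Ms4a1 were among the abundant transcripts of every library, and low Xist beside abundant Y-linked transcripts, such as Ddx3y, was seen in all 6 libraries.

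Cxcr5, the receptor that defines entry into the follicle, lies on the minus strand of chromosome 9 (GRCm38, chr9:44511787-44561877) and is a protein-coding gene with 5 annotated transcripts. Its normalized counts were 4122, 4525 and 4232 in Ahr+/+ mice and 5291, 5026 and 5334 in Ahr-/- mice. Each Ahr-/- library was above each Ahr+/+ library, and the spread within each genotype was small. The means were 4293 ± 208 (SD, n = 3) and 5217 ± 167 (SD, n = 3). Cxcr5 rose by 0.28 on the log2 scale (SE 0.045), a 1.21-fold difference with a 95% interval from 1.14 to 1.30 (adjusted p = 0.00074, edgeR quasi-likelihood test with Benjamini-Hochberg adjustment). This was the smallest of the 5 called differences, and 83.9% of all tested genes had a lower log2 fold change. Its 3′ end overlaps Bcl9l on the opposite strand by 110 exonic bases. The strand setting of the counting is not given in the sources used here, so reads from those bases could not be assigned to either gene with certainty.

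Ccr7, the T-zone homing receptor, lies on the minus strand of chromosome 11 (GRCm38, chr11:99144196-99155077). Normalized counts were 7893, 8526 and 7793 in Ahr+/+ mice and 10996, 9831 and 9654 in Ahr-/- mice. The lowest Ahr-/- value exceeded the highest Ahr+/+ value. Means were 8071 ± 397 (SD, n = 3) and 10160 ± 729 (SD, n = 3), so Ccr7 rose by 0.33 on the log2 scale (SE 0.053, 1.26-fold, 95% interval 1.16 to 1.36, adjusted p = 0.00074, edgeR). Among all tested genes, 85.7% had a lower log2 fold change.

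Gpr183, the oxysterol receptor, lies on the minus strand of chromosome 14 (GRCm38, chr14:121952551-121965195), inside the bounds of Ubac2 on the opposite strand, with which it shares 0 exonic bases. Its normalized counts were 11305, 9800 and 10029 in Ahr+/+ and 10768, 10527 and 11285 in Ahr-/- mice. The highest value of all 6 came from an Ahr+/+ mouse and all 3 Ahr-/- values lay within the Ahr+/+ range. Means of 10378 ± 811 and 10860 ± 388 (SD, n = 3 each) gave a log2 fold change of 0.07 (SE 0.052) and an adjusted p of 0.45 in the edgeR test. The 95% interval of the fold ran from 0.967 to 1.13, so a rise of the size seen for Cxcr4 or Ccr6 lay outside it.

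Cxcr4, the receptor for Cxcl12, lies on the minus strand of chromosome 1 (GRCm38, chr1:128588199-128592293). It was measured at 4247, 3977 and 3893 normalized counts in Ahr+/+ mice and at 5871, 5660 and 7471 in Ahr-/- mice. The genotypes did not overlap, and 1 Ahr-/- mouse, replicate 3, stood above the other 2. Means were 4039 ± 185 (SD, n = 3) and 6334 ± 990 (SD, n = 3). Cxcr4 had the largest log2 fold change of the 5 called receptors, 0.65 (SE 0.085), which is a 1.57-fold difference with a 95% interval of 1.38 to 1.78 (adjusted p = 0.00016, edgeR). Without any 1 of the 6 libraries the log2 fold change stayed between 0.51 and 0.73.

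Ccr6, the receptor for Ccl20, lies on the plus strand of chromosome 17 (GRCm38, chr17:8236043-8257141) and has 9 annotated transcripts. Its normalized counts were 1780, 2003 and 1626 in Ahr+/+ mice and 2940, 2539 and 2790 in Ahr-/- mice. Each Ahr-/- mouse was above every Ahr+/+ mouse. Means were 1803 ± 190 (SD, n = 3) and 2756 ± 202 (SD, n = 3), so Ccr6 rose 1.52-fold (95% interval 1.37 to 1.69), which is 0.61 on the log2 scale (SE 0.071, adjusted p = 5.9e-05, edgeR). Its adjusted p was the lowest of the 7 tested receptors. The log2 fold changes of Ccr6 and Cxcr4 were above those of 92.2% and 92.9% of all tested genes.

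Ccr9, the gut and thymus homing receptor, was present at a lower level. It lies on the plus strand of chromosome 9 (GRCm38, chr9:123678439-123784330). It had 288, 251 and 266 normalized counts in Ahr+/+ mice and 427, 310 and 428 in Ahr-/- mice. The genotypes did not overlap, but the second Ahr-/- mouse was nearer to the Ahr+/+ mice than to the other Ahr-/- mice. Means were 268 ± 19.1 (SD, n = 3) and 388 ± 67.9 (SD, n = 3), and Ccr9 rose by 0.51 on the log2 scale (SE 0.12, 1.43-fold, 95% interval 1.18 to 1.72, adjusted p = 0.0117, edgeR). Without the second Ahr+/+ mouse the log2 fold change was 0.46 and the adjusted p 0.0546 in the edgeR test, so Ccr9 was no longer called, and without any other 1 library the adjusted p was 0.00046 to 0.0449. Why the call was lost was not tested. The Ccr9 locus overlaps 6 other annotated genes. One of them, AC165425.1 on the opposite strand, shares 1932 exonic bases with it, and the lincRNA Gm17200 on the same strand shares 269, so part of its counts may belong to these genes.

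The remaining receptors gave few counts. Cxcr3 (GRCm38, chrX:101731535-101734269, minus strand) had raw counts of 14, 32 and 25 in Ahr+/+ and 7, 22 and 21 in Ahr-/- mice. Normalized, these were 13.6, 32.2 and 28.1 against 12.01, 15.6 and 19.1, with overlapping genotypes. The log2 fold change was -0.60 (SE 0.35) with an adjusted p of 0.278 in the edgeR test, and the 95% interval of the fold, 0.391 to 1.11, left both a fall and no difference possible at this depth. Ccr10 (GRCm38, chr11:101172997-101175443, minus strand) had raw counts of 1, 1 and 0 in Ahr+/+ and 1, 1 and 1 in Ahr-/- mice. Each library was under the floor of 3 counts, so Ccr10 was not tested and no difference was detectable at this depth. As a companion to the fit, a two-sided exact permutation test of the normalized counts, which with 3 mice against 3 cannot go below p = 0.1, gave 0.1 for each of the 5 called receptors, 0.5 for Gpr183 and 0.3 for Cxcr3.

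The 5 called receptors lie on chromosomes 1, 9, 11 and 17, and none of the 8 lies on chromosome 12, which carries Ahr. To see which of them hold the core letters bound by AhR with its partner ARNT, the RefSeq promoter windows (GRCm38.p6, from 250 bases before to 50 bases after each start) were searched for GCGTG on both strands. Windows were found for 5 of the 8 receptors, with 1 window each for Cxcr4, Ccr9, Gpr183 and Cxcr3 and 2 for Ccr6. Ccr7, Cxcr5 and Ccr10 had no entry. The Cxcr4 and Cxcr3 windows held 1 match each, and these are shown because they are the only matches found; capitals mark the core, and each is printed in the gene's 5′ to 3′ direction.
Cxcr4 (chr1:128592324-128592348, minus strand): cgccccgggaGCGTGtttttataaa
Cxcr3 (chrX:101734236-101734260, minus strand): ctgaccacagGCGTGgcagaaaaga
The Cxcr4 match begins 39 bases and the Cxcr3 match 103 bases before the RefSeq start, and the Cxcr3 match lies inside the gene as GENCODE annotates it. The windows of Ccr9, Gpr183 and Ccr6 held 0 matches. GCGTG occurred in 32.4% of all 32851 promoter windows, and neither match was part of the longer TNGCGTG, which 5.07% of windows hold and which overlaps the shorter motif. A match is a string of letters and not a measured binding site, so of the receptors with a called difference 1 (Cxcr4) had the letters in its window and 2 (Ccr6 and Ccr9) did not.

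Levels can be compared between genes only per length, so normalized counts were divided by the kilobases of each gene's merged GENCODE exons. On this scale Ccr7 was the highest in Ahr+/+ cells, at 4080 ± 201 per kb (SD, n = 3), followed by Gpr183 at 3595 ± 281. Cxcr4 came next at 2234 ± 102, then Cxcr5 at 1288 ± 62.4 and Ccr6 at 777 ± 81.7. Ccr9 at 26.2 ± 1.86 and Cxcr3 at 14.2 ± 5.64 were far below, and Ccr10 was at 0.382. The T-zone receptor and the oxysterol receptor were thus the most abundant per length at 8 h of α-IgM and IL-4.

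In Ahr-/- cells the order was the same. Ccr7 stood at 5137 ± 369 per kb, Gpr183 at 3762 ± 134, Cxcr4 at 3503 ± 548, Cxcr5 at 1566 ± 50.1, Ccr6 at 1188 ± 87.3, Ccr9 at 37.8 ± 6.61, Cxcr3 at 9.01 ± 2.06 and Ccr10 at 0.645 (SD, n = 3 for each). Gpr183 and Cxcr4 changed from separate to overlapping. In Ahr+/+ mice the values of neighbouring receptors in this order did not overlap, although the lowest Ccr7 value (3940 per kb) was just above the highest Gpr183 value (3916 per kb). In Ahr-/- mice Gpr183 ranged from 3646 to 3909 and Cxcr4 from 3130 to 4132, so these neighbours could not be ordered beyond their spread. The merged exons of Ccr9 span 10.26 kb, and dividing by the longest transcript, of 5.20 kb, gave 51.6 and 74.7 per kb without moving its place in the order. With that length Gpr183 reached 4150 per kb in Ahr+/+ mice and overlapped Ccr7, so the separation of Ccr7 from Gpr183 in Ahr+/+ mice depends on the length used, while the other neighbours stayed separate or overlapping as before. That alternative was added after the data had been seen.

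**Figure D2:**
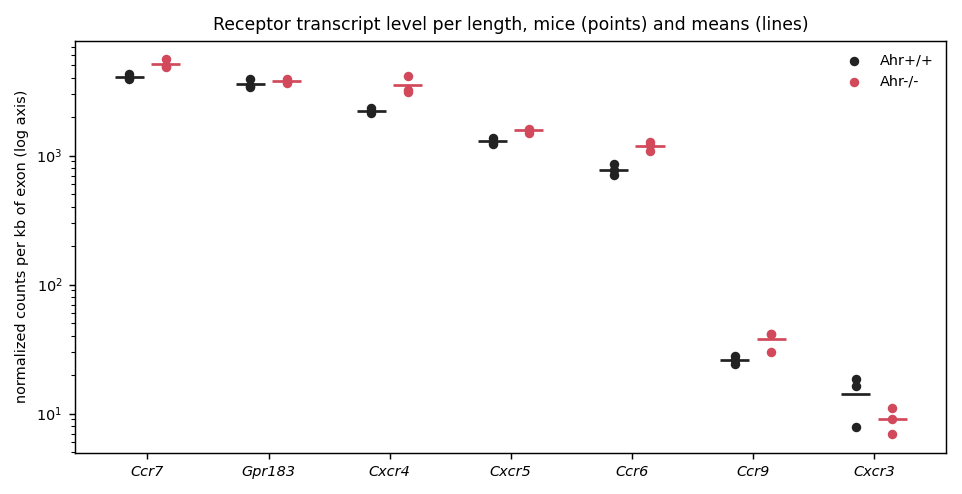
Normalized counts per kb of merged exon (log axis) for 7 receptors, ordered by level, with 1 point per mouse and a line at each genotype mean. Ccr7 and Gpr183 led in both genotypes, the Ahr-/- points of Gpr183 and Cxcr4 overlapped, and Ccr9 and Cxcr3 lay far below the other 5 receptors. Ccr10, with a count of 0 in 1 library, is not drawn.

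The balance between follicle and T-zone receptors was then read within each library, where a ratio does not depend on scaling to depth. The log2 ratio of Ccr7 to Cxcr5 counts was 0.94, 0.91 and 0.88 in Ahr+/+ mice and 1.06, 0.97 and 0.86 in Ahr-/- mice. The genotypes overlapped, and the means of 0.91 ± 0.028 and 0.96 ± 0.10 (SD, n = 3) differed by 0.05. Without the first Ahr-/- mouse the difference was 0.0012, and without the third it was 0.10. Ccr7 and Cxcr5 were each higher in Ahr-/- cells, and their ratio differed by less than the spread among the Ahr-/- mice.

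The ratio of Gpr183 to Cxcr5 was lower in each Ahr-/- mouse. It was 1.46, 1.11 and 1.24 on the log2 scale in Ahr+/+ and 1.02, 1.07 and 1.08 in Ahr-/- mice, with means of 1.27 ± 0.17 and 1.06 ± 0.029 (SD, n = 3) and a difference of -0.21. The lowest Ahr+/+ ratio (1.11) was close to the highest Ahr-/- ratio (1.08), and without the first Ahr+/+ mouse the difference was -0.12. The ratio of Cxcr4 to Cxcr5 was 0.04, -0.19 and -0.12 in Ahr+/+ and 0.15, 0.17 and 0.49 in Ahr-/- mice. The genotypes did not overlap, and the means of -0.09 ± 0.12 and 0.27 ± 0.19 (SD, n = 3) differed by 0.36. These ratios repeat the single-gene values in another form and were given no test.

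**Figure D3:**
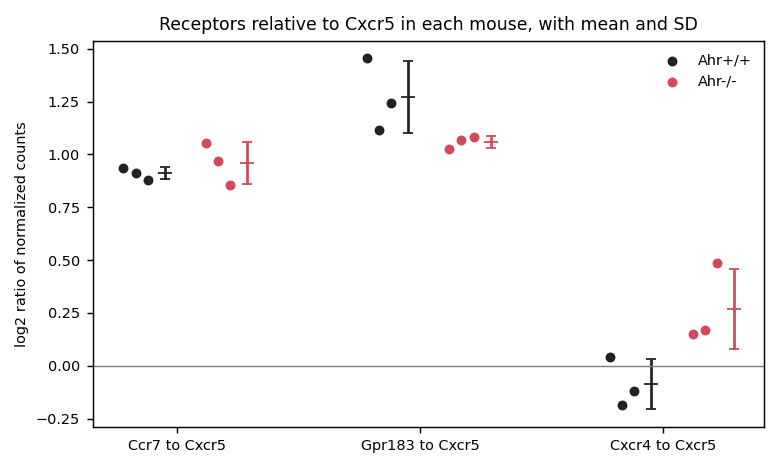
Log2 ratio of Ccr7, Gpr183 and Cxcr4 to Cxcr5 normalized counts in each mouse (1 point per mouse, with the mean and SD). The Ccr7 ratio overlapped between genotypes, the Gpr183 ratio was lower by 0.21 and the Cxcr4 ratio higher by 0.36 in Ahr-/- mice.

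For each called receptor the 3 genes with the most similar profile were taken, by Pearson's r of log2 CPM over the 6 libraries among the 11833 genes whose normalized counts averaged 10 or more. For Cxcr5 they were Idua, a lysosomal hydrolase (r = 1.00), Nipsnap1 (r = 0.995) and Jund, an AP-1 subunit (r = 0.994). For Ccr7 they were Ly6e (r = 0.995), Arhgap15 (r = 0.992) and Cyth1 (r = 0.992), and for Cxcr4 they were Sh3glb2 (r = 0.998), Ifngr2, a chain of the interferon-γ receptor (r = 0.992), and Pxk (r = 0.991). For Ccr6 they were Cox6a1 (r = 0.998), Cacnb1 (r = 0.997) and Mgat1 (r = 0.994), and for Ccr9 they were Acer3 (r = 0.998), Smim14 (r = 0.992) and Atp6v0b (r = 0.986). No gene appeared for more than 1 receptor. The 6 points share libraries and scaling and fall into the 2 genotypes, and with so many genes searched such values of r describe likeness only.

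Transcripts for the ligands of these receptors were scarce in the cultures. Of 11 listed chemokines 4 had enough counts to be tested, and, beside 9.79% of all tested genes, 1 rose. This was Ccl28, a ligand of Ccr10, with 14.3 ± 4.25 and 36.8 ± 3.59 normalized counts (SD, n = 3; log2 fold change 1.38, SE 0.27, adjusted p = 0.0033, edgeR). Ccl25, the ligand of Ccr9 and the highest of the list, had 43.5 and 52.1 (log2 fold change 0.23, adjusted p = 0.549, edgeR). Ccl20 and Ccl21a were at 0 in every library, which allows up to 3 counts in each, and Cxcl12, Cxcl13, Ccl19, Cxcl9 and Cxcl11 did not reach the filter. Of the 4 enzymes that make or remove the oxysterol ligands of Gpr183, 2 were tested. At adjusted p under 0.05 in edgeR 0 of them were called, beside 17.9% of all tested genes. Hsd3b7, which inactivates these oxysterols, had 154 and 166 normalized counts (log2 fold change 0.11, adjusted p = 0.612), and Cyp27a1 had 13.3 and 22.7 (log2 fold change 0.73, adjusted p = 0.10, edgeR). Ch25h and Cyp7b1, which build the ligand, were below the filter, with at most 1 and 6 raw counts in any library.

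Of 17 other chemokine and atypical receptors listed, 13 were tested. Of these, 1 rose and 1 fell, beside 9.79% and 8.13% of all tested genes, and their median log2 fold change was -0.14. Ccr2, the monocyte chemoattractant receptor, rose from 58.7 ± 18.3 to 110 ± 33.5 (SD, n = 3; log2 fold change 0.91, adjusted p = 0.0336, edgeR).

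Downstream of the receptors, 28 of 29 listed genes of G protein signalling and desensitization were tested. Of these, 7 rose and 1 fell, beside 9.79% and 8.13% of all tested genes, with a median log2 fold change of 0.07. The fall was that of Rgs10, a GTPase-activating protein that shortens Gαi signalling, from 774 ± 48.5 to 198 ± 31.6 normalized counts (SD, n = 3; log2 fold change -1.99, adjusted p = 2.7e-08, edgeR). Rgs10 thus moved opposite to 3 other called members of its family, Rgs2, Rgs1 and Rgs18. Among members that were not called, Rgs3 and Rgs14 had log2 fold changes of -0.24 and -0.18. Those of Rgs13, Rgs16 and Rgs19, also not called, were 0.08, 0.35 and 0.05. Rgs2 rose from 1494 to 2544 (log2 fold change 0.77, adjusted p = 4.6e-05, edgeR), Rgs1, which dampens chemokine responses of B cells, from 484 to 719 (0.57, adjusted p = 0.00052) and Rgs18 from 29.0 to 66.9 (1.15, adjusted p = 0.0042). The other 4 that rose were Adrbk1 (GRK2), a kinase that desensitizes receptors, the arrestin Arrb2, the GTPase Rac2 and the phosphoinositide 3-kinase subunit Pik3cg, by 0.22 to 0.31 on the log2 scale. Gnb1, the most abundant of the list, had 14483 and 13761 normalized counts (log2 fold change -0.07, adjusted p = 0.155, edgeR).

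Among 5 listed regulators of homing and egress, 1 rose and 2 fell, beside 9.79% and 8.13% of all tested genes. S1pr1, the sphingosine 1-phosphate receptor that leads lymphocytes out of tissue, rose from 803 ± 53.4 to 1251 ± 152 normalized counts (SD, n = 3; log2 fold change 0.63, adjusted p = 0.00018, edgeR). Cd69, an activation marker whose protein removes S1pr1 from the surface, fell from 7736 ± 913 to 3492 ± 27.8 (log2 fold change -1.15, adjusted p = 1.6e-07, edgeR). Klf2, a transcription factor of quiescent, recirculating lymphocytes, fell from 1285 ± 121 to 676 ± 56.3 (log2 fold change -0.94, adjusted p = 2.4e-06, edgeR). Foxo1 did not pass the test, with a log2 fold change of 0.05 (adjusted p = 0.42, edgeR).

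Transcripts that mark cell types and B-cell subsets also differed between the genotypes. For all counts of markers that follow, the shares over all tested genes were 9.79% called higher and 8.13% called lower in Ahr-/- cells. Of 7 B-cell markers 4 rose and 0 fell (median log2 fold change 0.26), and their summed level was 82474 to 86477 normalized counts in Ahr+/+ and 95922 to 100529 in Ahr-/- mice. The 4 were Pax5 (log2 fold change 0.65), Cd79b (0.35), Cd79a (0.26) and Ms4a1 (0.26), and the follicular marker Fcer2a rose by 0.31 on the same scale (adjusted p = 0.0076, edgeR). The rises of Cxcr5 and Ccr7 were of the size of these B-lineage markers, and those of Cxcr4 and Ccr6 of the size of that of Pax5. Of 6 marginal zone markers 2 rose (S1pr3 by 0.42 and Cr2 by 0.25 in log2) and 2 fell (Dtx1, log2 fold change -1.75, and Cd9, -1.17), with sums of 36756 to 40496 and 32417 to 35934. Of 5 plasma cell markers Xbp1 rose by 0.25 while Igj (J chain) and Prdm1 had log2 fold changes of -0.92 and -0.64, with sums of 14212 to 20220 and 13376 to 15019.

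Of the dendritic cell markers, most plasmacytoid ones rose, and the conventional ones moved in both directions. Of 8 plasmacytoid dendritic cell markers 6 rose and 0 fell, with a median log2 fold change of 1.38 and sums of 3732 to 4378 in Ahr+/+ and 4767 to 5808 in Ahr-/- mice. Siglech, a defining surface lectin of these cells, had 57.3, 52.3 and 60.6 normalized counts in Ahr+/+ and 300, 236 and 273 in Ahr-/- mice, a log2 fold change of 2.23. Klk1, Runx2 and Lifr rose by 2.19, 1.47 and 1.43, and Bst2, the highest of the list, and Rpgrip1 had log2 fold changes of 0.22 and -0.07 and were not called. Of 7 conventional dendritic cell markers 4 rose (Cd209a by 2.52, Clec9a by 1.86, Clec10a by 1.83 and Itgax by 1.06) and Zbtb46, the highest, fell by 0.40 on the log2 scale. Flt3 and Xcr1 were not called, with log2 fold changes of -0.20 and -0.26, and the sums of this list overlapped between the genotypes, at 810 to 933 and 872 to 1057. Plasmacytoid and conventional dendritic cells also express several of the receptors, among them Ccr9, Ccr7 and Cxcr4. The part of dendritic cell RNA in the receptors' differences was not tested.

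Markers of other leukocytes were low or mixed. Of 8 T-cell markers measured, 0 rose and 1, Cd3e, fell (33.9 to 14.1 normalized counts, log2 fold change -1.26). Their sums overlapped between genotypes, at 5999 to 6428 and 6026 to 6932, and were mostly made of Lck, without which they were 170 to 320 and 189 to 205. Of 6 natural killer cell markers 2 rose (Ncr1 by 0.98 and Klrb1c by 0.92 in log2), with overlapping sums of 276 to 383 and 339 to 532 and Gzma, at 117 and 163, as the highest. Of 7 monocyte and macrophage markers Cd14 rose by 1.64 on the log2 scale and Emr1, which encodes F4/80, had a log2 fold change of -3.60 (650 to 54.1 normalized counts), with sums of 839 to 1191 and 346 to 885. Of 4 neutrophil markers measured, only Mmp8 was called and fell by 3.55 on the log2 scale, whereas the median of the list was 0.55. Csf3r was the highest at 32.6 and 59.9, and the sums were 63.1 to 116 and 37.4 to 197. Without Csf3r they were 42.7 to 76.5 and 10.9 to 112. The median log2 fold changes were 0.51 for the natural killer cell list, 0.71 for the monocyte and macrophage list and -0.12 for the T-cell list. No marker of any of these lists was at 0 in all 6 libraries. Which of these cells contribute receptor transcripts was not tested.

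**Figure D4:**
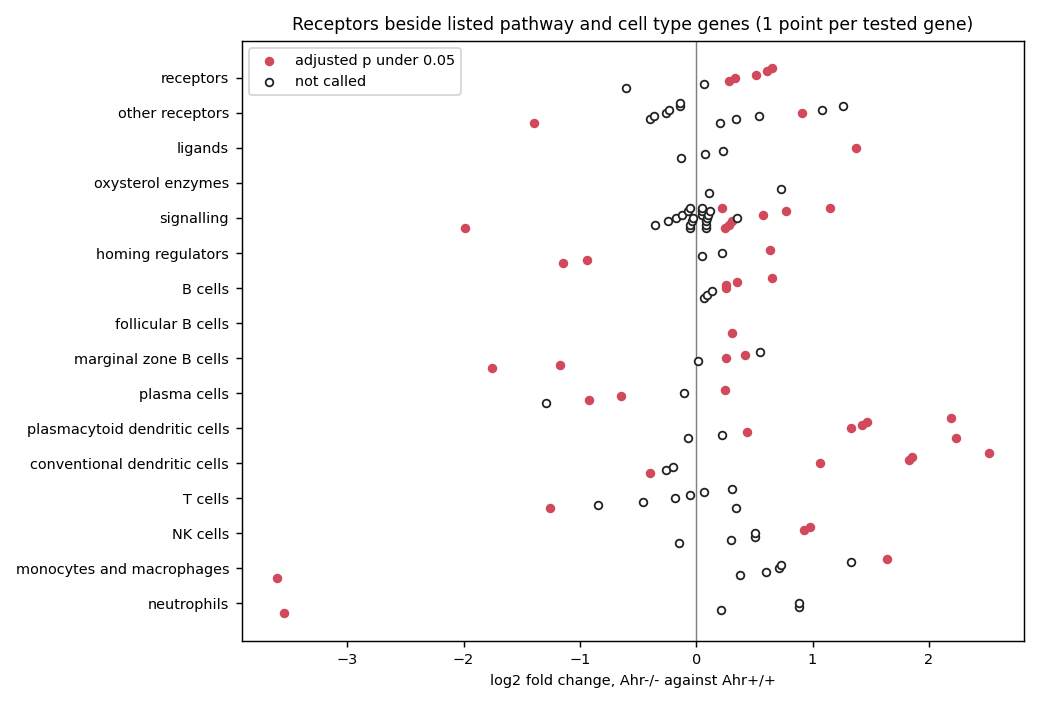
Log2 fold change (Ahr-/- against Ahr+/+, horizontal axis) of the tested genes of each list, 1 point per gene, filled where the adjusted p was under 0.05. The 5 filled receptor points lay between 0.28 and 0.65, in the range of the B-cell markers, whereas Rgs10 at -1.99 lay to the left and plasmacytoid dendritic cell markers reached 2.23.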

How the data were processed

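RNA was sequenced from stranded poly(A) libraries. The deposited values are raw counts per gene symbol, made by the authors with TopHat2, HTSeq and mm10 per the submitters' processing notes, which also name DESeq; versions of HTSeq and the annotation are not given in the sources used here. The authors' normalized counts and comparison table (means, fold changes and p-values) were not used.

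Tested were the 13682 of 23420 genes whose counts summed to 10 or more over the 6 libraries, with edgeR 4.0.16 in R 4.3.3 (TMM, quasi-likelihood test, prior count 0.125, Benjamini-Hochberg over all tested genes, called at adjusted p under 0.05). SE is the absolute log2 fold change divided by the square root of F. Replicates differed by more than counting noise (chi-square per degree of freedom 3.96 to 9.24). Intervals and p-values cover the spread between the 3 mice per genotype. Positions and lengths came from GENCODE on GRCm38.

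Named were the 8 receptors, Ahr and Cyp1a1, up to 4 called genes with the largest change per list (mean of at least 10 in the higher genotype) with its most abundant gene, and the 3 genes most like each called receptor. Other names, such as Foxo1, Arrb2 and the ligands under the filter, fall outside this rule and were added after their values were seen, to complete counts. The members and lists were chosen with earlier results of these data known. Alternatives were other scalings, filters, prior count, thresholds, DESeq2 1.42.0, robust fitting, a replicate block and leaving out each library. The fit was tested on simulated data. Values of some listed genes are not reported here.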

Additional observations from a re-analysis of the deposited data

How the results depend on the processing

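Calls of 5 receptors, higher in Ahr-/- cells, were obtained with DESeq2's size factors, with library size alone, without a filter, with a filter of 10 counts in 3 libraries, with a prior count of 2, with robust fitting and with DESeq2's Wald test. At an adjusted p under 0.01, 4 receptors and 1473 of all genes were called, against 5 and 2453, and Ccr9 (log2 fold change 0.51) was the receptor lost. Leaving out 1 library at a time gave 4 to 5 receptors and 1664 to 2601 genes. Ccr9 ranged from 0.41 to 0.67 on the log2 scale and was not called without the second Ahr+/+ library (0.46, adjusted p = 0.0546), and the cause was not tested. Over all alternatives Cxcr4 ranged from 0.51 to 0.73, Ccr6 from 0.54 to 0.69, Ccr7 from 0.27 to 0.37 and Cxcr5 from 0.25 to 0.32. The adjusted p of Cxcr4 was 0.0227 with robust fitting, against 0.00016 in the main fit (both edgeR). Gpr183 ranged from 0.03 to 0.13 and Cxcr3 from -0.90 to -0.35, and neither of this pair was called in any alternative. Replicate numbers did not pair the samples, since deviations of same-numbered libraries correlated at -0.11, 0.19 and -0.13 and 2 of 6 libraries correlated best with their own number. With the replicate block 2304 genes and 5 receptors were called. Cxcr3 and Ccr10 gave at most 32 and 1 counts per library, and whether greater depth would change their results was not tested.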
